A study of Homo sapiens with 6 samples.

Results

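The genes described here encode the proteasome: the subunits of its 20S core, the subunits of its 19S cap, the 3 immunosubunits, the activators that cap the core in place of 19S, and the chaperones that assemble the particle. The list holds 48 genes, named by symbol and sorted by subcomplex. The rule that picks them uses no measured value, though it was written with earlier results of these data known. Of these, 47 were matched to a row among the 57820 gene rows of each library, all 47 passed the expression filter, and PSMB3, a beta-ring subunit, is not analysed here. RNA was measured in U266, a human multiple myeloma (malignant plasma cell) line, in 2 groups of 3 libraries. The MYC libraries came from cells given a lentivirus that drives MYC from the EF1A promoter, a strong promoter active in most cell types, and the control libraries are labelled only as control U266. Whether the controls carry an empty vector is not given in the sources used here, so transduction and MYC cannot be told apart. Both groups were grown in RPMI-1640 medium with fetal bovine serum and antibiotics. The labels give no clone, culture or passage, so p-values measure the spread between these libraries, which may be technical.

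The proteasome is the large protease that degrades proteins tagged with ubiquitin. Its barrel-shaped core is a stack of alpha and beta rings, with proteolytic sites on the beta subunits PSMB5, PSMB6 and PSMB7, and its cap recognises ubiquitin, unfolds the substrate with a ring of ATPases and feeds it into the core. Interferon-inducible immunosubunits can take the place of the catalytic beta subunits and change which peptides are made for antigen presentation. Plasma cells make large amounts of secreted antibody and depend heavily on this disposal route, and proteasome inhibitors that bind PSMB5 are standard drugs in multiple myeloma.

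MYC itself was measured at 105, 110.3 and 92.1 CPM in the MYC libraries, against 3.91, 4.16 and 4.51 CPM in the controls, a log2 fold change of 4.60 ± 0.098 (SE, edgeR adjusted p = 9.71e-08). Summed expected counts ran from 27139978 to 158667309 in the MYC libraries and from 55026416 to 130576913 in the controls. All 10 plasma cell markers fixed for the identity of the cells were detected and tested, with summed levels of 3573 to 3658 TPM in the MYC libraries and 3881 to 4406 TPM in the controls. In edgeR's quasi-likelihood test 2 plasma cell markers were called higher and 5 lower, and 2 and 7 after removal of each library's trend with GC content (the GC offset, described below), where 28.8% and 32.1% of all genes were higher and lower, and 29.8% and 28.7% with the offset. The calls were led by CD38 (log2 fold change 2.53, 2.31 with the offset), SDC1 (-1.17, -0.37) and IRF4 (-0.71, -0.72), and MZB1, named after its value was seen, was called with the offset only (0.31, 1.02). Of the B cell markers 4 of 6 passed the filter, 1 higher and 2 lower (1 and 0 with the offset), with sums of 21.3 to 28.1 TPM with MYC and 37.6 to 39.9 TPM in controls. Of the 7 T and NK cell markers 1, TRAC, was not matched to a row. Of the other 6, 5 passed, 4 higher and 1 lower, or 4 and 0 with the offset (11.1 to 12.8 TPM with MYC, 5.71 to 7.92 TPM in controls). Of the myeloid markers 2 of 6 passed, 0 higher and 1 lower, or 1 and 0 with the offset (1.11 to 2.00 TPM with MYC, 1.61 to 2.36 TPM in controls). The B cell marker MS4A1, the NK marker NKG7, the monocyte markers CD14 and S100A8 and the epithelial markers EPCAM and CDH1 were at or near 0 and failed the filter. Others were detected. The B cell sum was nearly all CD79B, at means of 17.7 CPM with MYC and 30.0 CPM in controls. The T and NK sum was mostly CD3E, at 9.2 and 5.2 CPM. Of the tested markers of other cell types, PAX5, CD3D, CD3E, CD4, KLRD1 and KRT18 were called higher in both fits, and COL1A1 lower in both. Stromal and epithelial markers, 5 of 8 tested with 1 higher and 1 lower (2 and 1 with the offset), summed to 1193 to 1227 TPM with MYC and 1102 to 1141 TPM in controls, nearly all of it VIM. The part of other cell types in the results was not tested, and in bulk libraries fewer cells with a transcript and less of it per cell cannot be told apart.

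Proteasome transcripts made up a larger share of the library in MYC-overexpressing cells. The 47 genes took 0.864%, 0.836% and 0.845% of all counts in the MYC libraries, against 0.770%, 0.779% and 0.772% in the controls, and their summed level was 9754, 9500 and 9881 TPM with MYC, against 9179, 8885 and 9044 TPM in controls. The groups did not overlap in either measure. By edgeR's quasi-likelihood test, called at an adjusted p under 0.05, 26 of the 47 genes (55.3%) were higher and 8 (17.02%) were lower, where 28.8% of the 17679 genes tested were higher and 32.1% were lower. The median log2 fold change was 0.22 over the 47 genes and -0.02 over all genes tested. The lower and upper quartiles of the log2 fold change were -0.04 and 0.41 over the 47 genes and -0.54 and 0.33 over all genes. All 47 had a mean CPM (the count per library of standard size, scaled by TMM) of at least 5, and among the 10566 genes at that level 34.1% were higher and 35.0% lower in their own fit, against 26 and 9 of the 47. All 3 MYC libraries exceeded all 3 controls in CPM for 27 of the 47 genes, and all 3 lay below the controls for 8. Of all genes tested, 32.1% lay above and 35.1% below in the same way.

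**Figure D1:**
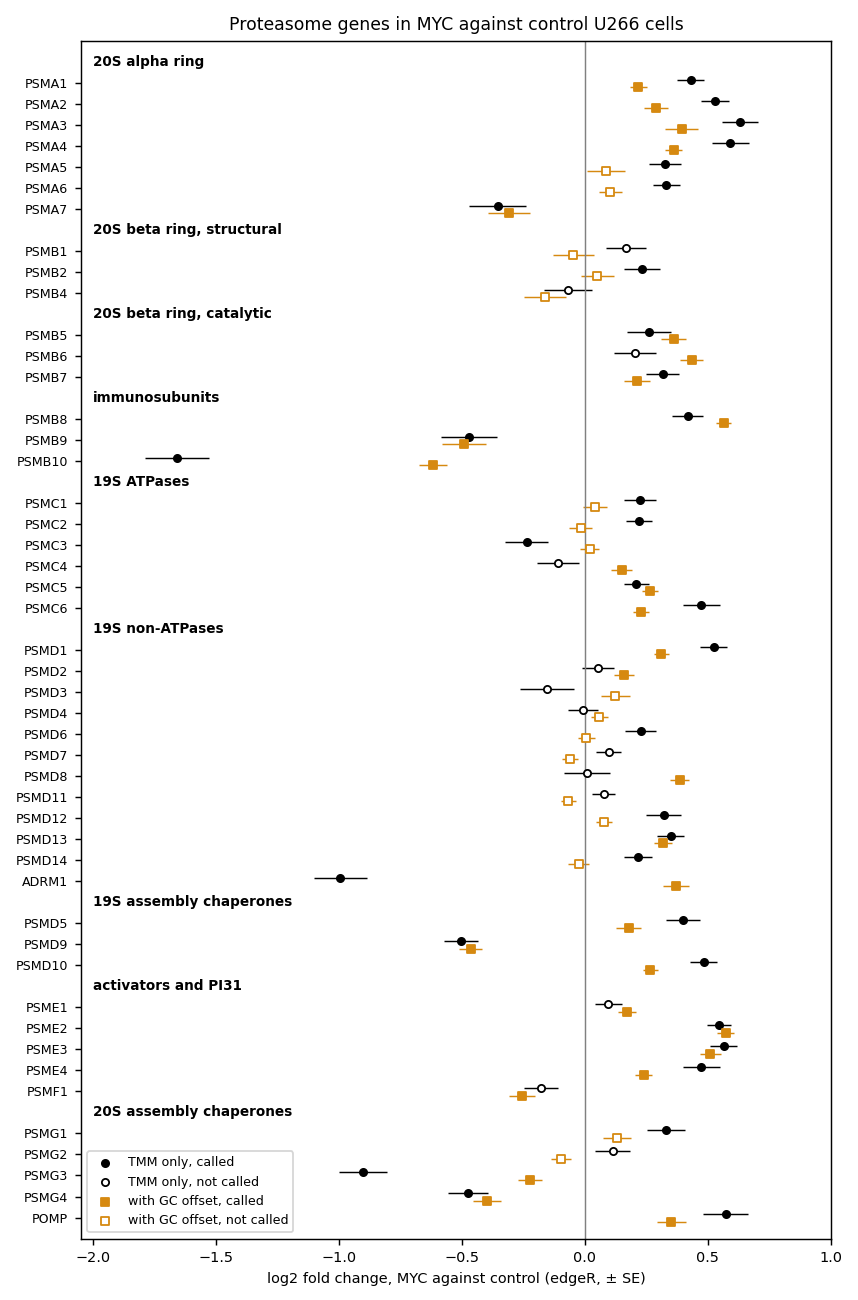
Log2 fold change (MYC over control, edgeR) of the 47 genes, grouped by subcomplex, with bars of 1 SE and with the value after the GC offset. Most alpha-ring, catalytic and activator genes lie right of 0, and PSMB10, ADRM1 and PSMG3 lie farthest left, with ADRM1 crossing 0 after the offset.

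The fold changes followed base composition. The GC content of the 47 genes' transcripts ran from 34.3% to 64.2%, and its Spearman correlation with the log2 fold change was -0.68 across the 47 genes and -0.56 across all genes with a GC value, given as descriptions across genes of the same 6 libraries. Of the 18 proteasome genes at or under 45% GC, 16 were called higher and 0 lower. Of the 22 between 45% and 55%, 10 were higher and 4 lower, and of the 7 above 55%, 0 were higher and 4 lower. Removing each library's GC trend, called the GC offset here, brought the correlation across the 47 genes to -0.05. With that offset 23 genes (48.9%) were higher and 7 (14.9%) lower, where 29.8% and 28.7% of all genes were, and the median log2 fold change was 0.13 over the 47 genes and -0.01 over all genes. Called higher in both fits were 17 genes, called lower in both were 6, and 1, ADRM1, was called in opposite directions. Fold changes or calls with the GC offset are given beside those without it below. CPM, TPM, their sums and the shares of counts or transcripts, above and below, are not corrected for GC content. Each count of calls by subcomplex below stands beside 28.8% of all genes higher and 32.1% lower, or 29.8% and 28.7% with the offset.

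**Figure D2:**
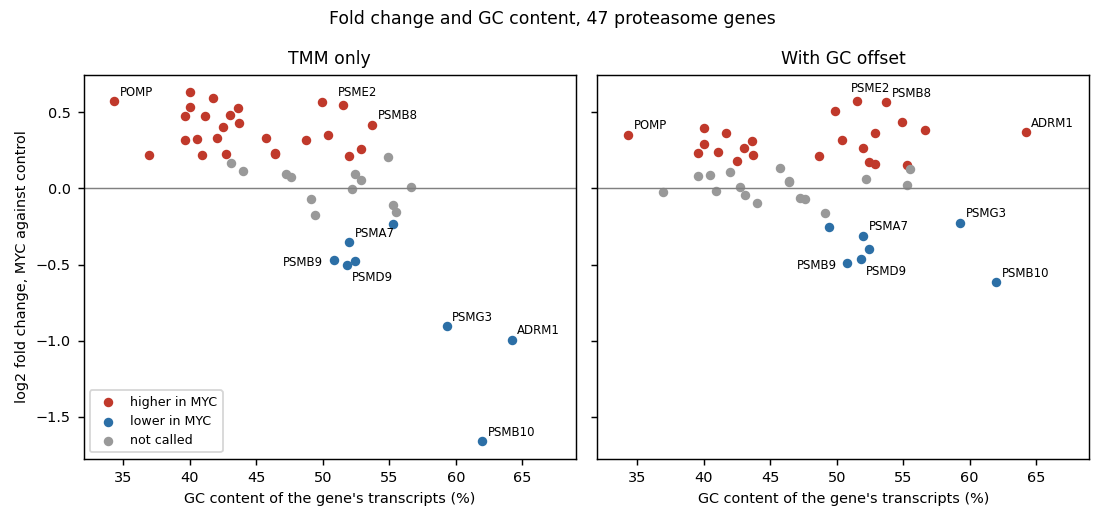
Log2 fold change (MYC over control, edgeR) against the GC content of the transcripts, in percent, for the 47 genes, without (left) and with (right) the GC offset. The downward slope on the left (Spearman's rho -0.68) is flat on the right (-0.05), where PSMB9, PSMB10, PSMD9 and PSMG4 remain among the lowest.

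The genes differed far more in level than between groups. Averaged over the 6 libraries, PSMB4, a structural beta subunit, was the most abundant at 978 TPM, ahead of the catalytic PSMB7 at 570.0 TPM and the cap scaffold PSMD2 at 522 TPM. The median gene stood at 164.7 TPM. The lowest was PSMD5, a chaperone of cap assembly, at 9.24 TPM, and next to it were the core chaperone PSMG4 at 20.6 TPM and the large activator PSME4 at 39.8 TPM. The most and least abundant thus differed 106-fold, while the strongest change between groups in the fit without the GC offset, that of PSMB10, was 3.16-fold.

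**Figure D3:**
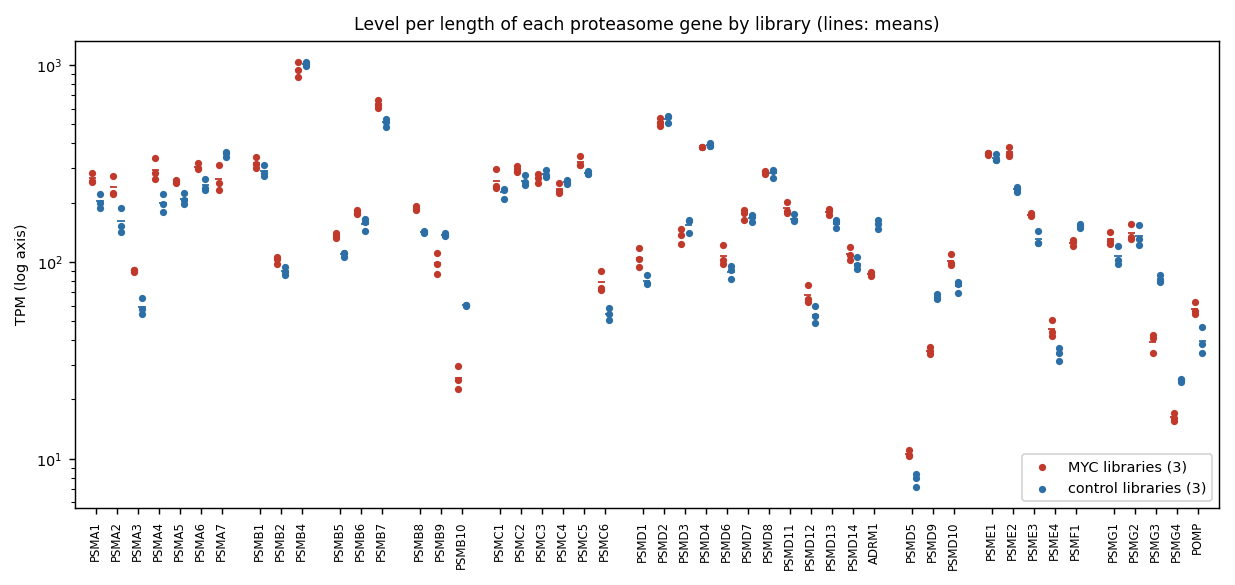
Level of each of the 47 genes in TPM (log axis) in the 3 MYC and the 3 control libraries, grouped by subcomplex. Within a subcomplex the genes spread over a wider range than the 2 groups of any 1 gene.

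The alpha ring, which forms the gated ends of the core, rose with 1 exception in the fit without the GC offset. Of its 7 subunits 6 were higher and 1 was lower, with a median log2 fold change of 0.43. With the GC offset 4 were higher and 1 lower, with a median of 0.22. Of all genes 28.8% were higher and 32.1% lower, and 29.8% and 28.7% with the offset. The median GC content of the 7 genes was 41.7%, and that of the exception, PSMA7, was 52.0%. PSMA2 was measured at 214, 207 and 210.2 CPM in the MYC libraries, against 155, 143 and 139 CPM in the controls. Its log2 fold change was 0.53 ± 0.058 (SE, edgeR adjusted p = 9.46e-05) and 0.29 with the GC offset (edgeR adjusted p = 0.000852). PSMA3 stood at 53.1, 53.6 and 48.7 CPM with MYC overexpression and 36.3, 32.1 and 31.9 CPM in control cells, a log2 fold change of 0.63 ± 0.074 (SE, edgeR adjusted p = 0.000134) and 0.39 with the GC offset (edgeR adjusted p = 0.00092). For both subunits every MYC library exceeded every control. PSMA2 shares 781 exon bases with AC010132.3 on its own strand. That gene averaged 2539 raw counts in MYC libraries and 2723 in controls, where PSMA2 averaged 14550 over all libraries. The part of this overlap was not tested. PSMA4 (log2 fold change 0.59, 0.36 with the offset) and PSMA1 (0.43, 0.22) were also higher in both fits, whereas PSMA5 (0.32) and PSMA6 (0.33) were called only without the offset. PSMA7 was the subunit that fell, with 188, 151 and 133 CPM in the MYC libraries, against 189, 213 and 201 CPM in the controls. Its highest MYC library lay just below its lowest control, and its log2 fold change was -0.36 ± 0.12 (SE, edgeR adjusted p = 0.0261) and -0.31 with the GC offset (edgeR adjusted p = 0.0125). That call ended without MYC replicate 2 (-0.33, adjusted p = 0.0875, edgeR), control replicate 2 (-0.33, 0.0657) or control replicate 3 (-0.36, 0.0621). The 7 subunits summed to 1698, 1659 and 1783 TPM with MYC and 1521, 1357 and 1405 TPM in controls, without overlap.

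Of the structural beta subunits, PSMB2 was the 1 called among the 3 measured, and none was called with the GC offset. PSMB2 reached 216, 207 and 182 CPM in the MYC libraries, against 176, 176 and 164 CPM in the controls. All of its MYC values lay above its controls, with a log2 fold change of 0.23 ± 0.073 (SE, edgeR adjusted p = 0.0225) and 0.050 with the GC offset (edgeR adjusted p = 0.549). Its call also ended without MYC replicate 1 (0.18, adjusted p = 0.0723, edgeR), MYC replicate 2 (0.21, 0.0816) or control replicate 3 (0.19, 0.106), and without an expression filter (0.21, 0.0504). PSMB1 (log2 fold change 0.17, adjusted p = 0.104, edgeR) and PSMB4 (-0.070, adjusted p = 0.563) overlapped between groups, and were -0.047 and -0.16 with the offset. PSMB1 was called higher without MYC replicate 3 (0.24, edgeR adjusted p = 0.0069). The summed TPM of the 3 genes overlapped too, at 1481, 1362 and 1260 with MYC and 1413, 1390 and 1358 in controls.

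Of the 3 catalytic subunits 2 were called higher, and all 3 with the GC offset. PSMB7, which carries the trypsin-like site, was measured at 385, 367 and 375 CPM in the MYC libraries, against 277, 321 and 308 CPM in the controls. Its groups did not overlap, and its log2 fold change was 0.32 ± 0.067 (SE, edgeR adjusted p = 0.00331) and 0.21 with the GC offset (edgeR adjusted p = 0.00845). PSMB5, which carries the chymotrypsin-like site bound by bortezomib, stood at 111, 103 and 88.1 CPM with MYC overexpression and 79.6, 89.1 and 83.2 CPM in control cells. The lowest MYC library lay below the highest control, and the log2 fold change was 0.26 ± 0.088 (SE, edgeR adjusted p = 0.0301) and 0.36 with the GC offset (edgeR adjusted p = 0.000277). Without the offset the PSMB5 call ended when MYC replicate 1 (0.19, adjusted p = 0.0884, edgeR), MYC replicate 2 (0.24, 0.0973), control replicate 1 (0.20, 0.113) or control replicate 3 (0.25, 0.0954) was left out. PSMB6, which carries the caspase-like site, had 92.0, 87.5 and 80.7 CPM in the MYC libraries, against 66.8, 80.8 and 78.1 CPM in the controls. These overlapped narrowly, the difference was not called at 0.20 ± 0.084 (SE, edgeR adjusted p = 0.0635), and it was called at 0.43 with the GC offset (edgeR adjusted p = 5.85e-05) and without MYC replicate 3 (0.25, edgeR adjusted p = 0.0209). PSMB6 was also called higher with RLE factors (0.22, edgeR adjusted p = 0.0498) and an offset for effective length (0.22, edgeR adjusted p = 0.0482). The same held with DESeq2 (0.22, adjusted p = 0.0433) and on log2(TPM + 1) (0.20, adjusted p = 0.0406, limma). On TPM the MYC libraries of both PSMB5 and PSMB6 lay above their controls. Together the 3 genes summed to 945, 912 and 973 TPM with MYC, against 733, 785 and 809 TPM in controls, without overlap.

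The 3 immunosubunits did not move together: PSMB8 rose, PSMB9 and PSMB10 fell. PSMB8, which replaces PSMB5, was at 152, 143 and 135 CPM in the MYC libraries, against 103, 111 and 107 CPM in the controls. Each MYC library exceeded each control, and the log2 fold change was 0.42 ± 0.062 (SE, edgeR adjusted p = 0.000487) and 0.56 with the GC offset (edgeR adjusted p = 9.75e-07). PSMB9, which replaces PSMB6, was at 51.0, 44.4 and 36.4 CPM with MYC overexpression and 58.7, 65.5 and 58.1 CPM in control cells. Here each MYC library lay below each control, with a log2 fold change of -0.47 ± 0.11 (SE, edgeR adjusted p = 0.00689) and -0.49 with the GC offset (edgeR adjusted p = 0.00143). PSMB10, which replaces PSMB7, had the strongest fall of the 47 genes, with 12.6, 11.1 and 8.40 CPM in the MYC libraries, against 34.1, 34.3 and 32.1 CPM in the controls. The groups were far apart, with a log2 fold change of -1.66 ± 0.13 (SE, edgeR adjusted p = 1.99e-05), or 3.16-fold lower. With the GC offset the fall was 1.53-fold, at -0.62 ± 0.057 (SE, edgeR adjusted p = 2.47e-05), and with an offset for effective length the log2 fold change was -1.19. The 3 calls kept their direction and stayed past the threshold in all 19 alternative settings. The 3 genes summed to 331, 306 and 297 TPM with MYC and 339, 341 and 339 TPM in controls, with MYC below.

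Reads that fit overlapping genes were divided between them by estimation, which is uncertain, and without strand this includes genes on opposite strands. PSMB8 shares 618 bases of exon with the antisense PSMB8-AS1 and 139 with PSMB9, its neighbour on the other strand, in GENCODE 29. PSMB9 shares 174 bases with PSMB8-AS1 on its own strand. PSMB8-AS1 averaged 22.4 CPM with MYC and 25.7 CPM in controls and was not called (adjusted p = 0.0514, edgeR). PSMB10 shares 644 bases with AC040162.1 on its own strand. That gene had 312 raw counts on average in MYC libraries and 570.4 in controls, where PSMB10 averaged 1883 over all libraries. The part of these overlaps in the calls was not tested.

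The immunosubunits were also set against the subunits they replace, on the length-scaled TPM, which is not corrected for GC content. GC content was 53.7% for PSMB8 and 52.9% for PSMB5, and 50.8% for PSMB9 and 54.9% for PSMB6. It was 62.0% for PSMB10 and 48.7% for PSMB7. With the GC offset the log2 fold change of PSMB10 was -0.62 in place of -1.66, and that of PSMB7 0.21 in place of 0.32. The part of GC content in the shares was not tested. PSMB8 made up 57.8%, 57.6% and 58.8% of the PSMB5 and PSMB8 sum in the MYC libraries, against 57.2%, 55.8% and 56.4% in the controls. PSMB9 made up 37.6%, 35.7% and 33.0% of the PSMB6 and PSMB9 sum with MYC, against 48.9%, 46.9% and 44.8% in controls. PSMB10 made up 4.55%, 4.03% and 3.29% of the PSMB7 and PSMB10 sum with MYC, against 11.1%, 10.4% and 10.2% in controls. In means, the PSMB8 share was 58.1 ± 0.652% with MYC and 56.5 ± 0.682% in controls, the PSMB9 share 35.5 ± 2.31% with MYC and 46.9 ± 2.05% in controls, and the PSMB10 share 3.96 ± 0.633% with MYC and 10.6 ± 0.441% in controls (SD, n = 3 each). The PSMB8 difference of 1.59 percentage points was 2.71 with effective lengths averaged over libraries and 2.71 on CPM. The MYC and control shares did not overlap in any of the 3 pairs. The exact two-sided permutation test over 3 against 3 libraries gave p = 0.1 for each pair, the smallest it allows, and 0.1 after adjustment over the 3 pairs, so no share passed a threshold of 0.05. These are shares of transcripts, and the composition of assembled particles was not measured.

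**Figure D4:**
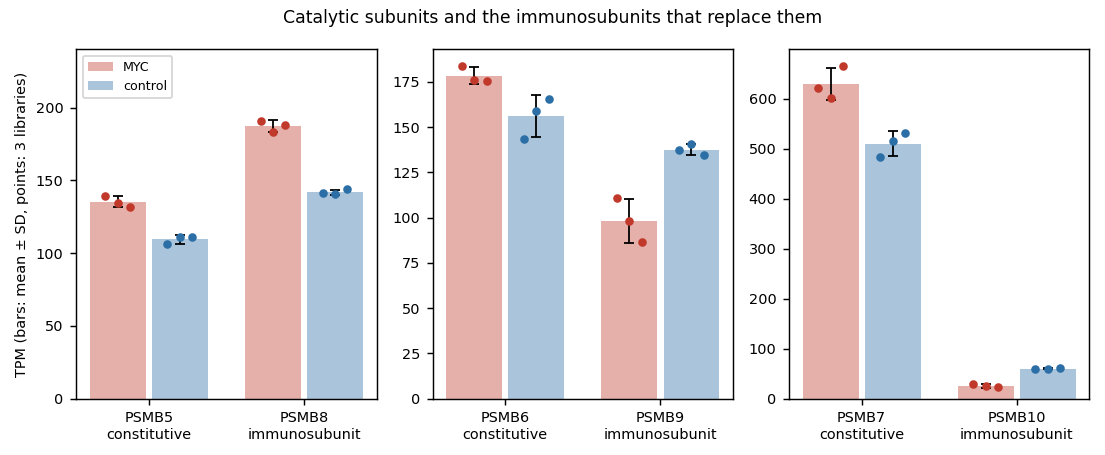
Level in TPM of each catalytic subunit and of the immunosubunit that replaces it, with points for the 3 libraries of each group and bars for mean ± SD, each panel on its own scale from 0. The MYC points lie above the control points for PSMB5, PSMB6, PSMB7 and PSMB8 and below them for PSMB9 and PSMB10. The TPM values are not corrected for GC content.

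Promoters of the immunosubunits and of 3 further genes that changed are shown to put letters beside the calls. They are RefSeq sequences (GRCh38.p14) of 250 bases before and 50 bases after a gene's start, 5′ to 3′ on the gene's strand, found for 41 of the 47 genes with 51 starts. Capitals mark a match, on either strand, to GAAA repeated after any 2 bases, the core of the interferon-stimulated response element, in PSMB8 (chr6:32843998-32844297, minus strand), PSMB10 (chr16:67936801-67937100, minus) and PSME2 (chr14:24146561-24146860, minus). In PSMB9 (chr6:32853942-32854241, plus) they mark TGACNNNGC, the core of the antioxidant response element that NFE2L1 and its relatives bind. In PSME3 (chr17:42833147-42833446, plus) and PSMD9 (chr12:121888540-121888839, plus) they mark CACGTG, the E-box that MYC with MAX binds. PSME2 and PSMD9 also hold the antioxidant core, left in lower case.
PSMB8: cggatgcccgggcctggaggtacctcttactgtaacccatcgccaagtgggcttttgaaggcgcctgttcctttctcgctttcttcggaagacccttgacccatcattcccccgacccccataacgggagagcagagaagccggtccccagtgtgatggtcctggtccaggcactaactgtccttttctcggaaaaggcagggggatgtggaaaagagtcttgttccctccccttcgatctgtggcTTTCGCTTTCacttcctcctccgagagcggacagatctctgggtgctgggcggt
PSMB9: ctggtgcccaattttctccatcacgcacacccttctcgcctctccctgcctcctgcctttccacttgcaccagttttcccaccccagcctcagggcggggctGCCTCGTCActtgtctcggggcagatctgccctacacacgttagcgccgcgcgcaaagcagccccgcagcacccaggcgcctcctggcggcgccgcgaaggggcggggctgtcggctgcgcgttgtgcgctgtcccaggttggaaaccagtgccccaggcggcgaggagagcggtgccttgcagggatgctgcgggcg
PSMB10: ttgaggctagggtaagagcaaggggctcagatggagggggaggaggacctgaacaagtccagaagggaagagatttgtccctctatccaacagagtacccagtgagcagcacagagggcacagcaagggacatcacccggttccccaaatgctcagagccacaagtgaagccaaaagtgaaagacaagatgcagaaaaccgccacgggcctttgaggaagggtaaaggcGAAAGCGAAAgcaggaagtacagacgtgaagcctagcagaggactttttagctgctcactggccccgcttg
PSME2: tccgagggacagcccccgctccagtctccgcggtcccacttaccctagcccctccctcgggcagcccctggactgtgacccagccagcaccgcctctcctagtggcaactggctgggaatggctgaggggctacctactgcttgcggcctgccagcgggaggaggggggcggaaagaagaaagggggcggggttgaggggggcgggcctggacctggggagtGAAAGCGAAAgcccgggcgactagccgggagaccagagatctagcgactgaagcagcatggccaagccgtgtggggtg
PSME3: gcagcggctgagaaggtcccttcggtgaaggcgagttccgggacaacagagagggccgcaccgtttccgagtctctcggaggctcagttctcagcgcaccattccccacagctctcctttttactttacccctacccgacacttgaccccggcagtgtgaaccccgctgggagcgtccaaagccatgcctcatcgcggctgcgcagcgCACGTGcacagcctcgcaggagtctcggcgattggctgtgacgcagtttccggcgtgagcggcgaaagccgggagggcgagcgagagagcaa
PSMD9: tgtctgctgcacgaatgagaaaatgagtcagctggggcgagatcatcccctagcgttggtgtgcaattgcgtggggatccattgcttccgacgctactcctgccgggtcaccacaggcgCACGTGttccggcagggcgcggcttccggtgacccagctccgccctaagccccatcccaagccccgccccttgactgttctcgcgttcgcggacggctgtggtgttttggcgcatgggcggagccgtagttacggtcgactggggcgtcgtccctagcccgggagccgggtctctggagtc

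A match is a description of the letters, and binding was not measured. The interferon core was found in 7 of the 51 proteasome promoters (13.7%) and in 3.57% of all 35116 promoters of the same length. Its 7 genes, PSMA4, PSMB4, PSMB8, PSMB10, PSME1, PSME2 and PSMG4, held 3 called higher and 2 called lower, and 4 and 2 with the GC offset. The antioxidant core was found in 16 of the 51 (31.4%) and in 13.3% of all promoters, and its 15 genes held 8 called higher and 3 called lower, and 9 and 2 with the offset. ADRM1, described below, is counted among the 3 without the offset and among the 9 with it. The E-box was found in 2 of the 51 (3.92%) and in 7.26% of all promoters, and of its 2 genes PSME3 was higher and PSMD9 lower in both fits. Of all genes tested 28.8% were higher and 32.1% lower, and 29.8% and 28.7% with the offset. Genes carrying the same motif were thus called in both directions.

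The cap's ATPases, the ring that unfolds substrates, rose in part. Of the 6 genes 4 were higher and 1 lower (median log2 fold change 0.21), and with the GC offset 3 were higher and 0 lower (median 0.10). PSMC6 was at 68.7, 70.3 and 78.0 CPM in the MYC libraries, against 56.2, 49.1 and 51.2 CPM in the controls. Its groups did not overlap, and its log2 fold change was 0.47 ± 0.074 (SE, edgeR adjusted p = 0.000683) and 0.23 with the GC offset (edgeR adjusted p = 0.000317). PSMC2 was at 306, 309 and 302 CPM with MYC overexpression and 274, 259 and 256 CPM in control cells, a log2 fold change of 0.22 ± 0.052 (SE, edgeR adjusted p = 0.00652). These groups did not overlap either, but the difference was -0.018 with the offset and was not called. PSMC3 had 244, 219 and 193 CPM in the MYC libraries, against 241, 267 and 264 CPM in the controls. Its groups overlapped, and its log2 fold change of -0.24 ± 0.088 (SE, edgeR adjusted p = 0.0442) was 0.019 and not called with the offset. The PSMC3 call also ended without MYC replicate 2 (-0.24, adjusted p = 0.107, edgeR), MYC replicate 3 (-0.15, 0.0861), control replicate 2 (-0.22, 0.0921) or control replicate 3 (-0.22, 0.117), with RLE factors (-0.22, 0.0606), DESeq2 (-0.22, 0.0531) or the replicate block (-0.24, 0.0665), on log2(TPM + 1) (-0.070, 0.38, limma) and with the length offset (-0.038, 0.661). PSMC5 was higher in both fits (0.21 and 0.26). It shares 874 exon bases with FTSJ3 on the other strand, which rose itself (log2 fold change 0.67, and 0.82 with the offset). Without an expression filter the calls of PSMC5 (0.19, edgeR adjusted p = 0.105) and PSMC2 (0.20, 0.0833) ended. PSMC1 (0.22) was called only without the offset, and its call ended without control replicate 1 (0.21, adjusted p = 0.0582, edgeR) or control replicate 2 (0.19, 0.0833), on log2(TPM + 1) (0.19, adjusted p = 0.132, limma) and without an expression filter (0.20, adjusted p = 0.0783, edgeR). It shares 75.8% of its exon bases with NRDE2 on the other strand, at 27.7 CPM with MYC and 25.8 CPM in controls. The part of these overlaps was not tested. PSMC4, at -0.11 and not called, was 0.15 and called higher with the offset, but -0.21 and called lower without MYC replicate 1 (edgeR adjusted p = 0.0335), so it has no direction here. The summed TPM of the 6 genes was 1412, 1422 and 1529 with MYC and 1363, 1313 and 1385 in controls, where the lowest MYC value lay just above the highest control.

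Of the 12 cap subunits without ATPase activity, 5 were higher and 1 lower (median log2 fold change 0.09), and with the GC offset 5 were higher and 0 lower (median 0.10), but only PSMD1 and PSMD13 were higher in both fits. PSMD1, a large scaffold of the cap's base, was at 217, 228 and 235 CPM in the MYC libraries, against 164, 154 and 155 CPM in the controls. Its MYC values all lay above its controls, with a log2 fold change of 0.52 ± 0.056 (SE, edgeR adjusted p = 8.47e-05) and 0.31 with the GC offset (edgeR adjusted p = 3.27e-05). PSMD13, a lid subunit, was at 188, 176 and 171 CPM with MYC overexpression and 142, 139 and 140.1 CPM in control cells, likewise without overlap. Its log2 fold change was 0.35 ± 0.055 (SE, edgeR adjusted p = 0.000694) and 0.32 with the GC offset (edgeR adjusted p = 9.36e-05). It shares 316 exon bases with SIRT3 on the other strand, whose part was not tested. PSMD6 (0.23), PSMD12 (0.32) and PSMD14 (0.22), the last being the lid's deubiquitinase, were called higher without the offset only. The PSMD6 call ended without control replicate 2 (0.19, adjusted p = 0.0692, edgeR) or control replicate 3 (0.22, 0.0524), and that of PSMD14 without control replicate 3 (0.19, 0.0557). Both calls also ended on log2(TPM + 1) (adjusted p = 0.0591 for PSMD6 and 0.118 for PSMD14, limma) and without an expression filter (0.0605 and 0.0764, edgeR). PSMD2, the other large scaffold, was 0.052 (adjusted p = 0.512, edgeR) and 0.16 with the GC offset (edgeR adjusted p = 0.00781). PSMD8 was 0.0073 (adjusted p = 0.954) and 0.39 with the GC offset (edgeR adjusted p = 4.32e-05). The ubiquitin receptor PSMD4 (-0.0078, and 0.059 with the offset) and the subunits PSMD3 (-0.15, 0.12), PSMD7 (0.096, -0.061) and PSMD11 (0.076, -0.067) were called in neither fit. The 12 genes summed to 2329, 2287 and 2379 TPM with MYC and 2299, 2329 and 2357 TPM in controls, which overlapped.

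ADRM1, a ubiquitin receptor of the cap that also anchors the deubiquitinase UCHL5, was the 1 gene of the 47 called in opposite directions by the 2 fits. It was measured at 64.3, 55.3 and 48.8 CPM in the MYC libraries, against 105, 124 and 106 CPM in the controls. All 3 MYC libraries lay below the controls, at a log2 fold change of -0.99 ± 0.11 (SE, edgeR adjusted p = 9.35e-05), or 1.99-fold lower. At a GC content of 64.2%, its value was 0.37 with the GC offset (edgeR adjusted p = 0.000331), in the other direction and also past the threshold. No direction is therefore given for ADRM1. UCHL5 was measured at 83.0, 88.2 and 88.8 CPM with MYC overexpression and 52.0, 46.3 and 48.5 CPM in control cells. It rose in both fits, at 0.83 ± 0.064 (SE, edgeR adjusted p = 1.9e-05) and 0.58 with the GC offset (edgeR adjusted p = 2.17e-06).

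The 3 chaperones of cap assembly were called in both fits, 2 higher and 1 lower. PSMD10, also known as gankyrin, was at 95.2, 95.0 and 99.0 CPM in the MYC libraries, against 72.0, 66.4 and 68.7 CPM in the controls. Its log2 fold change was 0.48 ± 0.055 (SE, edgeR adjusted p = 0.000121) and 0.27 with the GC offset (edgeR adjusted p = 7.59e-05). PSMD5 was at 23.6, 25.2 and 23.8 CPM with MYC overexpression and 19.4, 17.7 and 18.1 CPM in control cells, a log2 fold change of 0.40 ± 0.068 (SE, edgeR adjusted p = 0.00104) and 0.18 with the GC offset (edgeR adjusted p = 0.0134). PSMD9 went the other way, with 33.5, 29.9 and 29.2 CPM in the MYC libraries, against 44.3, 44.0 and 42.8 CPM in the controls. None of the 3 genes overlapped between groups. The fall of PSMD9 was -0.50 ± 0.068 (SE, edgeR adjusted p = 0.000298) and -0.46 with the GC offset (edgeR adjusted p = 3.68e-05), and on log2(TPM + 1) it was -0.89. The sums of the 3 genes overlapped, at 143, 143 and 156 TPM with MYC and 156, 141 and 151 TPM in controls.

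Of the activators and PI31, 3 of 5 were called higher and 0 lower, and with the GC offset 4 were higher and 1 lower. Of all genes 28.8% were higher and 32.1% lower, and 29.8% and 28.7% with the offset. PSME1 and PSME2 form the interferon-inducible PA28 ring, PSME3 forms a nuclear ring of its own, PSME4 is the single-chain activator PA200, and PSMF1, PI31, binds the core as an inhibitor in vitro. PSME2 was at 206, 202 and 203 CPM in the MYC libraries, against 137, 144 and 137 CPM in the controls. PSME3 was at 319.5, 316 and 304 CPM with MYC overexpression and 223, 207 and 206 CPM in control cells. Both were higher in every MYC library than in any control. The log2 fold change of PSME2 was 0.54 ± 0.050 (SE, edgeR adjusted p = 4.01e-05) and 0.57 with the GC offset (edgeR adjusted p = 1.9e-06), and that of PSME3 was 0.56 ± 0.056 (SE, edgeR adjusted p = 6.02e-05) and 0.51 with the GC offset (edgeR adjusted p = 1.35e-05). PSME4 rose as well (0.47, and 0.24 with the offset). PSME1, the partner of PSME2 in the ring, was 0.095 (adjusted p = 0.173, edgeR), overlapped between groups, and was 0.17 with the GC offset (edgeR adjusted p = 0.00364). PSMF1 was -0.18 (adjusted p = 0.0535), not called, and -0.26 with the GC offset (edgeR adjusted p = 0.00254), called lower, as it was without MYC replicate 1 (-0.23, 0.0231) or control replicate 1 (-0.23, 0.0345). PSMF1 was also called lower with total counts (-0.19, edgeR adjusted p = 0.0197), the CPM minimum (-0.19, 0.0364) and the length offset (-0.25, 0.00942). The same held with limma-voom (-0.18, adjusted p = 0.0404) and on log2(TPM + 1) (-0.28, adjusted p = 0.00349, limma). The 5 genes summed to 1043, 1038 and 1094 TPM with MYC, against 922, 873 and 864 TPM in controls, without overlap. PSME2 shares 216 exon bases with RNF31 on the other strand, which was lower with MYC, at a log2 fold change of -0.92, and of -0.20 with the offset. PSME3 shares 300 exon bases with BECN1 on the other strand, which averaged 9576 raw counts in MYC libraries and 9756 in controls. The part of these overlaps was not tested. Rows of pseudogenes named after PSME2 held counts equal to 1.90% of its own, the highest among the 17 genes with such rows, and counts estimated between such copies are uncertain.

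The chaperones that build the core were divided. POMP, which guides the beta ring onto the alpha ring and is lost once the core is complete, was at 49.7, 50.5 and 52.2 CPM in the MYC libraries, against 39.3, 30.9 and 32.5 CPM in the controls. PSMG1, which works with PSMG2, was at 69.4, 64.3 and 70.2 CPM with MYC overexpression and 59.9, 51.0 and 51.5 CPM in control cells. In both the MYC libraries lay above the controls. The log2 fold change of POMP was 0.57 ± 0.091 (SE, edgeR adjusted p = 0.000726) and 0.35 with the GC offset (edgeR adjusted p = 0.000718), and that of PSMG1 was 0.33 ± 0.077 (SE, edgeR adjusted p = 0.00586) and, not called, 0.13 with the offset. PSMG3 and PSMG4, which form the other chaperone pair, both fell. PSMG3 was at 27.9, 26.4 and 21.3 CPM in the MYC libraries, against 47.8, 48.1 and 45.5 CPM in the controls. PSMG4 was at 10.1, 10.3 and 8.83 CPM with MYC overexpression and 13.4, 13.9 and 13.3 CPM in control cells. All MYC values of these genes lay below their controls, with -0.90 ± 0.098 (SE, edgeR adjusted p = 9.29e-05) for PSMG3 and -0.48 ± 0.082 (SE, edgeR adjusted p = 0.00106) for PSMG4. With the offset PSMG3 was -0.22, 1.17-fold lower in place of 1.87-fold, and PSMG4 was -0.40 (adjusted p = 0.00362 for PSMG3 and 0.000347 for PSMG4, edgeR). PSMG4 shares 1388 exon bases with SLC22A23 on the other strand. That gene averaged 532 raw counts in MYC libraries and 446 in controls, where PSMG4 averaged 987 over all libraries. The part of this overlap was not tested. PSMG2 was 0.11, -0.098 with the offset, and overlapped between groups. The 5 genes summed to 371, 371 and 409 TPM with MYC and 432, 357 and 377 TPM in controls, which overlapped.

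Of 10 genes listed around NFE2L1 and its relatives, 3 were higher and 6 lower, and with the GC offset 4 were higher and 6 lower. Of all genes 28.8% were higher and 32.1% lower, and 29.8% and 28.7% with the offset. NFE2L1, the membrane-bound factor that raises proteasome genes when the proteasome is inhibited, was at 1150, 1058 and 895 CPM in the MYC libraries, against 2139, 2333 and 2233 CPM in the controls. Its MYC libraries lay well below its controls, at a log2 fold change of -1.11 ± 0.096 (SE, edgeR adjusted p = 3.08e-05) and -0.81 with the GC offset (edgeR adjusted p = 2.02e-06). The small MAF proteins pair with NFE2L1 and NFE2L2 on the antioxidant element. MAFF was -1.25 (adjusted p = 3.65e-06, edgeR) and MAFK -1.89 (adjusted p = 2.14e-05), and with the offset they were -0.50 and -0.46, lower in both fits. MAFF averaged 7.80 CPM with MYC and 18.5 CPM in controls, and MAFK only 1.74 and 6.57 CPM. MAFG, named after its value was seen, was more abundant, at 72.0 and 152.5 CPM. It was -1.08, and -0.56 with the offset, also lower in both fits. Named after their values were seen, DDI2, the protease that cuts NFE2L1 into its active form, and NGLY1, the enzyme that strips its sugars, were higher, at 0.53 and 0.42 (edgeR adjusted p = 0.000148 and 0.00058, 0.32 and 0.19 with the offset). KEAP1, likewise named afterwards, was -0.83 and called lower, but 0.11 and called higher with the offset, so it has no direction here. Processing and activity of the NFE2L1 protein were not measured.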

How the data were processed

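RNA selected for poly-A tails was sequenced from 3 MYC and 3 control libraries of U266 cells, without strand, per the labels' protocols. The submitters' processing notes name cutadapt, TopHat2 and build GRCh37, whose version numbers are not stated. Per the file headers, which follow RSEM, the authors deposited for every gene an expected count (reads that fit several genes are divided among them), a TPM, scaled by the authors for length and depth, and an effective length. Unmapped columns numbered 0.

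After rounding, expected counts entered edgeR 4.0.16 (R 4.3.3) with filterByExpr defaults, TMM scaling, a group-only model, the quasi-likelihood F test and Benjamini-Hochberg adjustment over 17679 genes, at a threshold of 0.05. The SE came from the F statistic. For the GC offset, a loess curve (span 0.4) of log2 CPM on transcript GC content was removed in each library (GENCODE 29, matched for 97.3% of genes) and TMM scaling repeated. Alternatives used DESeq2 1.42.0, limma 3.58.1, TPM, other filters and factors, length offsets, and each library left out. The fit was tested on simulated counts with known changes. It called 58.5% of genes changed 1.5-fold, 78.4% of those changed 2-fold, 97.0% of those changed 4-fold and 0.11% of unchanged genes. A gene not called here is therefore not shown to be unchanged. In that simulation 17210 of the 17404 genes tested were unchanged and no GC trend was added. In these data many more genes were called and fold changes followed GC content, so the simulated rates may not hold here. Depth ran from 27139978 to 158667309 counts per library, and the error given is the spread between libraries. No pair of libraries in a group agreed within counting noise (chi-square per degree of freedom at least 8.67).

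The members and lists were chosen with earlier results of these data known. Values per library are given for catalytic subunits and immunosubunits, and elsewhere for the 2 called members of each subcomplex with the smallest adjusted p in each direction. From other lists up to 3 called genes are named by the same order. A gene that this rule names is not reported here.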

Additional observations from a re-analysis of the deposited data

How the results depend on the processing

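The 3 libraries per group, and the shallowest of 27139978 counts, limit what small changes can show. Of the 34 proteasome genes called, 20 kept their call in all 19 alternatives (15 higher, 5 lower). Over the alternatives that kept all libraries, the 26 higher and 8 lower became 23 and 7 with the GC offset, 27 and 7 with RLE factors or DESeq2, 26 and 9 with total counts or limma-voom, 24 and 8 on log2(TPM + 1), 20 and 8 without an expression filter and 28 and 8 with the length offset. Leaving out 1 library gave 22 to 28 higher and 6 to 10 lower (all genes 4184 to 5076 and 4925 to 5809). At a mean CPM of at least 5, 3695 of all genes were lower. Deviations of same-numbered libraries from their group means correlated at -0.05, 0.08 and 0.11, and those of other pairs at -0.16 to 0.10. With 3 libraries per group these values cannot decide whether the numbers pair libraries. The replicate block gave 26 higher and 7 lower, and 25 and 7 with the GC offset. The share difference of PSMB8 was 1.59 points, 2.71 with averaged lengths and 2.71 on CPM, and that of PSMB10 -6.61, -8.64 and -7.26. Log2 fold changes turned sign with the GC offset, alone or with the block, for PSMB1 (-0.047, -0.056), PSMC2 (-0.018, -0.019), PSMC3 (0.019, 0.018), PSMC4 (0.15), PSMD3 (0.12), PSMD4 (0.059), PSMD7 (-0.061, -0.062), PSMD11 (-0.067), PSMD14 (-0.026, -0.027), ADRM1 (0.37) and PSMG2 (-0.10). PSMD4 turned with RLE factors and DESeq2 (0.011), PSMD8 with total counts (-0.0097), no filter (-0.014), the CPM minimum (-0.0091) and limma-voom (-0.0003), and PSMD2 on TPM (-0.062) and the length offset (-0.03). With 1 library left out, values that changed sign ran from -0.16 to 0.029 for PSMB4, -0.0053 to 0.089 for PSMD2, -0.058 to 0.035 for PSMD4 and -0.072 to 0.10 for PSMD8, none called. The cause was not tested.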

Other observations

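Around the proteasome itself, 11 of 12 listed proteins that bind or complement it were tested, and 6 were higher and 1 lower (5 and 3 with the GC offset), where 28.8% of all genes were higher and 32.1% lower (29.8% and 28.7% with the offset). Beside UCHL5, the ubiquitin ligase UBE3C, which extends ubiquitin chains at the proteasome, was 0.45 ± 0.057 (SE, edgeR adjusted p = 0.000214) on the log2 scale (0.27 with the offset) and the importin IPO9, which carries proteasomes into the nucleus, was 0.42 ± 0.054 (SE, edgeR adjusted p = 0.000236), or 0.26 with the offset. Both were higher in 3 of 3 MYC libraries than in any control. Of the 6 ubiquitin and E1 genes 3 were higher and 0 lower (5 and 0 with the offset). RPS27A, a ubiquitin fusion with a ribosomal protein, was 0.57 ± 0.090 (SE, edgeR adjusted p = 0.000699) and 0.38 with the offset, the polyubiquitin gene UBB was 0.38 ± 0.074 (SE, edgeR adjusted p = 0.00218) and 0.46 with the offset, and the E1 enzyme UBA6 was 0.30 ± 0.078 (SE, edgeR adjusted p = 0.00894), which was 0.063 and not called with the offset.

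Of the 27 E2 enzymes, which pass ubiquitin from the E1 to a ligase or substrate, 10 were higher and 5 lower (12 and 8 with the offset), beside the same shares of all genes. UBE2E1 was at 114, 119 and 117 CPM in the MYC libraries, against 61.2, 57.5 and 59.5 CPM in the controls, a log2 fold change of 0.97 ± 0.053 (SE, edgeR adjusted p = 3.54e-06) and 0.76 with the GC offset (edgeR adjusted p = 3.48e-07). UBE2N, an E2 of inflammatory signalling and DNA repair, was 0.62 ± 0.060 (SE, edgeR adjusted p = 5.33e-05) and 0.39 with the offset. CDC34 was -1.05, and 0.34 with the offset, called in both directions, so none is given. Of 17 shuttle factors and VCP cofactors tested, 7 were higher and 7 lower (4 and 7 with the offset), where 28.8% and 32.1% of all genes were (29.8% and 28.7% with the offset). RAD23B, a ubiquitin shuttle, was at 366, 388 and 379 CPM with MYC overexpression and 283, 279 and 283 CPM in control cells, a log2 fold change of 0.42 ± 0.052 (SE, edgeR adjusted p = 0.000175) and 0.20 with the GC offset (edgeR adjusted p = 0.00462). The arsenite-inducible ZFAND2A was -0.70 ± 0.092 (SE, edgeR adjusted p = 0.000248) and -0.62 with the offset.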
